A study of Rattus norvegicus with 8 samples.

Results

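The epidermal growth factor (EGF) and hepatocyte growth factor (HGF) ligands and their receptors were described in whole kidneys of HSRA rats. The group was a list of 10 genes, the ligands Egf, Tgfa, Hbegf, Areg and Hgf and the receptors Egfr, Erbb2, Erbb3, Erbb4 and Met. Every probe set annotated to exactly 1 of these symbols was taken, which gave 10 probe sets, 1 per gene, of the 29214 on the array. All 10 passed the filter on dim genes that left 13796 of 17245 named genes for testing.

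HSRA-S kidneys came from 4 animals born with 1 kidney (congenital solitary kidney), and HSRA-C kidneys from 4 control animals with both kidneys. Both groups carry the same background, a model of unilateral renal agenesis bred from a heterogeneous stock, and all animals were 4 weeks old. Whole kidneys were measured with Affymetrix Rat Gene 1.1 ST arrays, 1 per animal. The labels give neither the sex and litter of the animals nor the side of the kidney. The comparison asks whether a kidney that developed alone expresses these growth factor genes at other levels than a kidney of a pair.

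EGF, TGF-alpha, HB-EGF and amphiregulin are made as membrane-bound precursors that proteases cut free, and all bind EGFR. EGFR then pairs with itself or with ERBB2, ERBB3 or ERBB4, which are tyrosine kinases of the same family, and signals through the Ras-MAP kinase and PI3 kinase relays. In the kidney Egf is made by the thick ascending limb and the distal convoluted tubule, where EGF also acts on magnesium uptake. HGF is secreted by stromal cells as an inactive chain, is cleaved by serine proteases and binds MET, the receptor tyrosine kinase on epithelium. Both systems act on tubule growth and on repair after injury.

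Array medians lay between 30.8 and 32.3 on the linear intensity scale, and the arrays correlated at 0.983 to 0.996 over the tested genes on the log2 scale. Defining markers of kidney tissue were bright in all kidneys: Umod, the urinary protein of the thick ascending limb, lay between log2 11.55 and 11.62 in HSRA-S and between 11.58 and 11.70 in HSRA-C. Slc34a1, the phosphate transporter of the proximal tubule, lay between 11.83 and 12.09 in HSRA-S and between 11.92 and 11.97 in HSRA-C, a difference of -0.036. The proximal tubule list as a whole had higher means in HSRA-S for 12 of 14 tested genes, 4 of them at an unadjusted p under 0.05, with 1 lower gene at that threshold, 3 without overlap and a median of 0.18. Of all genes 7.36% were higher and 4.69% lower at that threshold, and 6.29% were without overlap. Of the 14, 10 were higher without HSRA-C replicates 3 and 4, 1 of them at that threshold, with a median of 0.056. HSRA-C replicates 3 and 4 stood apart in the mean of the inner medulla markers. The mean of 5 such markers, among them the urea transporter Slc14a2 and the water channel Aqp4, was 8.16, 8.13, 8.19 and 6.76 in HSRA-S replicates 1 to 4 and 7.31, 7.95, 8.88 and 9.06 in HSRA-C replicates 1 to 4. In this mean HSRA-S replicate 4 was the lowest of the 8 and those 2 control kidneys the highest. Slc14a2, Aqp4 and Akr1b1 of this list were each highest in those 2 kidneys, while Slc5a3 and Slc6a6 were not. Slc5a3 was at 7.98 and 8.16 in HSRA-C replicates 3 and 4, against 8.32 in HSRA-S replicate 1. Slc6a6 was at 9.22 and 9.25 in them, against 9.40 in HSRA-S replicate 4. The differences of the 10 genes and of the named pathway genes are therefore also given without HSRA-C replicates 3 and 4 where that moved them by more than 1.5 times. In whole kidneys a smaller number of cells of a type and less RNA per cell cannot be told apart.

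No gene of the group differed at an adjusted p under 0.05 in limma, 0 of 10, as for all genes, of which 0% passed. The widest differences were in Hgf, 1.36-fold lower in HSRA-S, and in the receptor Erbb4, 1.17-fold lower. They were the 2 genes at an unadjusted p under 0.05, both lower in HSRA-S. Among all tested genes 12.1% reached that threshold, 4.69% lower and 7.36% higher in HSRA-S. Of the 10 genes, 7 had a lower mean in HSRA-S, against 44.5% of all genes, and their median log2 difference was -0.14, against 0.015 over all genes. The values of 0 of the 10 genes were free of overlap between the groups, against 6.29% of all genes. The count of 2 did not hold for every set of kidneys: it was 0 without HSRA-S replicate 4 and 0 without HSRA-C replicate 3. Without HSRA-S replicate 1 it stayed at 2, but the genes were Erbb4 and Hbegf, and Hgf was not among them. The count was 1 without HSRA-S replicate 2 (9.52% of all genes), HSRA-C replicate 2 (13.9%) or HSRA-C replicate 4 (7.37%). It was also 1 without HSRA-C replicates 3 and 4 together, where 4.85% of all genes reached the threshold. In that setting 9 of the 10 genes had a lower mean in HSRA-S, among them Met at -0.00032 and Erbb3 at -0.013, and the median was -0.098. The share of all genes with a lower mean in that setting is not given here.

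**Figure D1:**
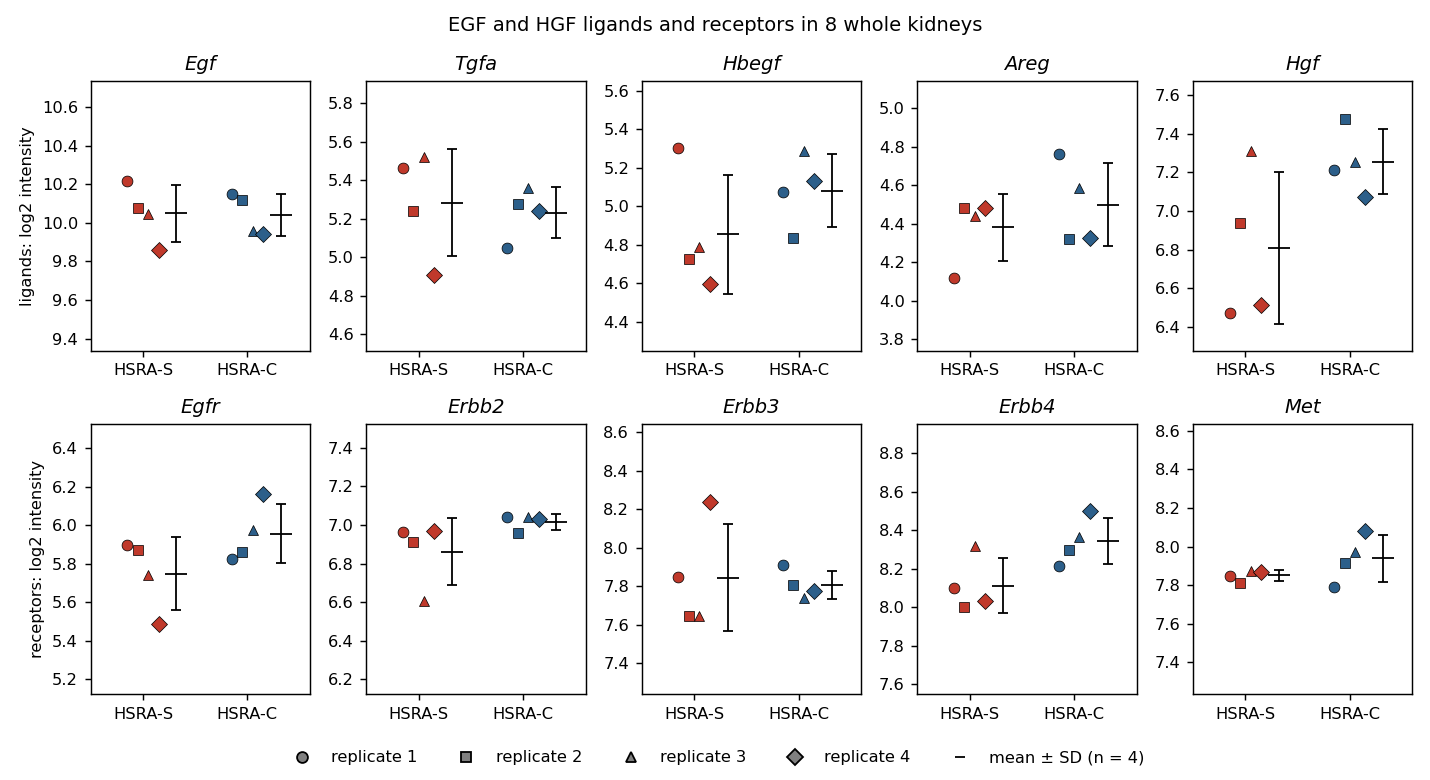
Log2 intensity of the 5 ligands (top) and the 5 receptors (bottom) in each kidney, HSRA-S in red at the left and HSRA-C in blue at the right of each panel, with mean and SD (n = 4 each) beside the points. All panels span the same height, so Hgf in HSRA-S shows a wide spread (range 0.84) and Met in HSRA-S a narrow one (range 0.062), and the groups overlap in every panel.

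The sequences upstream of Erbb4 and Hgf are shown because these genes had the smallest p-values of the group and lie near opposite ends of the group in their number of CG dinucleotides. Of the 10 genes, 9 had an entry in the RefSeq table of assembly GRCr8. The 250 bases before the annotated start are printed 5′ to 3′ along the gene, with every CG dinucleotide, the site of DNA methylation in mammals, in capitals. A CG reads the same on both strands.
Erbb4, GRCr8 chr9:78045607-78045856, minus strand: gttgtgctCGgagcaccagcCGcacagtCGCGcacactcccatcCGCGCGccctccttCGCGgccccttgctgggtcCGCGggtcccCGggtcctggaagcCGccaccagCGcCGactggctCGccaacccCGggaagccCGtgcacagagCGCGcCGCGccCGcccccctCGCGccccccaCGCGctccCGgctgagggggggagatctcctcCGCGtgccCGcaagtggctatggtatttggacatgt
Hgf, GRCr8 chr4:19700468-19700717, minus strand: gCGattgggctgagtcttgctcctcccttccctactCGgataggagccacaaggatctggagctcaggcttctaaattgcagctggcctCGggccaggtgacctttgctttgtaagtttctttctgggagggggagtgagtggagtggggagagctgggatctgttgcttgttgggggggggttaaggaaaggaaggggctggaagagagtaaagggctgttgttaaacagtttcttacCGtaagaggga

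The Erbb4 window held 31 CG dinucleotides and the Hgf window 4, where the median over 33469 rat promoters was 5 and 92.2% of them held at least 1. By CG count Hbegf (30) and Tgfa (26) stood near Erbb4, and Egf (4) and Met (3) near Hgf. Areg had 18, Erbb2 19 and Egfr 11. Ligands and receptors were found on both sides, so that CG content did not separate the 2 roles. The Erbb4 window had more CG than 95.3% of rat promoters and the Hgf window more than 37.4%, and both genes had lower means in HSRA-S. The counts describe these windows and say nothing of methylation or of factors bound there.

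Hgf, the ligand of Met, was lower on average in the solitary kidney and varied widely within that group. Its log2 level was 6.47, 6.94, 7.31 and 6.51 in HSRA-S replicates 1 to 4 and 7.21, 7.48, 7.26 and 7.07 in HSRA-C replicates 1 to 4. In HSRA-S 3 of 4 kidneys lay below every control kidney, while replicate 3 lay within the control range. The difference was -0.45 on the log2 scale (SE 0.17, 95% interval -0.84 to -0.058), with group means of 6.81 ± 0.40 for HSRA-S and 7.26 ± 0.17 for HSRA-C (SD, n = 4 each) and a limma adjusted p = 0.375. The exact two-sided permutation of the 8 labels gave p = 0.114, where the smallest possible value is 0.0286. The spread of Hgf between kidneys of a group exceeded that of 96.4% of the tested genes. Leaving out HSRA-C replicates 3 and 4 left the difference at -0.54 (limma adjusted p = 0.977), and leaving out any single kidney kept it between -0.61 and -0.33. Without HSRA-S replicate 1 it was -0.33, with an unadjusted limma p of 0.087.

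Markers of stroma, the tissue that makes Hgf, differed between the groups in the same direction as Hgf. All 7 tested stromal markers had lower means in HSRA-S, against 44.5% of all genes. Of the 7, 4 were at an unadjusted p under 0.05, against 4.69% of all genes lower at that threshold, and 0 at an adjusted p under 0.05. All 7 were also lower without HSRA-C replicates 3 and 4, 1 of them at an unadjusted p under 0.05. The first of the list, the proteoglycan Dcn, differed by -0.43 on the log2 scale and the collagen Col1a1 by -0.13. The mean of the list was 7.66, 7.86, 7.94 and 7.61 in HSRA-S and 7.88, 7.97, 8.26 and 8.33 in HSRA-C, replicates 1 to 4. The 2 HSRA-S kidneys lowest in Hgf, replicates 1 and 4, were also the 2 lowest in this mean, and within HSRA-S the kidney highest in Hgf was the highest in it. In HSRA-C the order differed, since replicates 3 and 4 were highest in stromal markers and replicate 2 in Hgf. HSRA-C replicate 4, the highest of the 8 in the stromal mean at 8.33, was the lowest control in Hgf at 7.07. The part of stromal cells in the Hgf difference was not tested.

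Met, the HGF receptor, had one of the smaller differences of the 10. It was at log2 7.85, 7.81, 7.87 and 7.87 in HSRA-S replicates 1 to 4 and 7.79, 7.91, 7.97 and 8.08 in HSRA-C replicates 1 to 4. The HSRA-S values lay within 0.062 of each other, and the 2 highest values belonged to HSRA-C replicates 3 and 4. The difference was -0.088 (SE 0.070, 95% interval -0.24 to 0.068; limma adjusted p = 0.639). Without HSRA-C replicates 3 and 4 it was -0.00032. The lower bound of that first interval lay above the Hgf estimate of -0.45, and whether the 2 genes differed in their differences was not tested.

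The proteins that bring HGF to Met and the EGF family ligands to their receptors were split evenly. Of 14 tested genes of ligand release and HGF activation, 7 had higher and 7 lower means in HSRA-S, 0 at an unadjusted p under 0.05, with a median of 0.0067. The 3 of smallest p were Plat, the tissue plasminogen activator, at -0.21 (SE 0.095), St14, the epithelial protease matriptase, at -0.28 (SE 0.16), and Mst1r, the Met-related receptor RON, at -0.15 (SE 0.099). They were -0.074 for Plat, -0.18 for St14 and -0.050 for Mst1r without HSRA-C replicates 3 and 4. St14 was at 7.47, 7.49, 7.44 and 6.79 in HSRA-S replicates 1 to 4 and between 7.34 and 7.72 in HSRA-C. HSRA-S replicate 4 lay below all other kidneys, and the rest of HSRA-S lay within the control range.

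Egf had the smallest difference of the 10 genes. Its log2 level was 10.22, 10.08, 10.05 and 9.86 in HSRA-S replicates 1 to 4 and 10.15, 10.12, 9.96 and 9.94 in HSRA-C replicates 1 to 4. The groups overlapped over nearly their whole ranges. The difference was 0.0075 (SE 0.087, 95% interval -0.19 to 0.20; limma adjusted p = 0.982), with group means of 10.05 ± 0.15 for HSRA-S and 10.04 ± 0.11 for HSRA-C (SD, n = 4 each). Without HSRA-C replicates 3 and 4, which were the lowest controls, it was -0.085.

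Markers of the 2 segments that make Egf pointed to different sides. In the thick ascending limb list 6 of 7 genes had lower means in HSRA-S, with the median at -0.11 and 1 gene lower at an unadjusted p under 0.05. Umod differed by -0.068 and the salt transporter Slc12a1 by -0.14. In the distal convoluted tubule list all 5 tested genes had higher means in HSRA-S, 4 of them at an unadjusted p under 0.05, with a median of 0.34. Of all genes 7.36% were higher and 4.69% lower at that threshold. The medians were -0.092 and 0.21 without HSRA-C replicates 3 and 4, with 4 of 7 thick limb genes lower and all 5 distal genes higher. The salt transporter Slc12a3 of that segment differed by 0.082. HSRA-S replicate 4, the kidney lowest in Egf, was also the lowest in the thick limb mean at 8.97, against 9.26 to 9.27 in the other HSRA-S kidneys and 9.19 to 9.38 in HSRA-C. The kidneys next lowest in Egf, HSRA-C replicates 3 and 4 at 9.96 and 9.94, were the highest in that mean, at 9.38 and 9.35. The part of either segment in the Egf level was not tested.

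The other ligands of EGFR were dimmer, and their groups overlapped. Tgfa was at log2 5.46, 5.24, 5.52 and 4.91 in HSRA-S replicates 1 to 4 and 5.05, 5.28, 5.36 and 5.24 in HSRA-C replicates 1 to 4. The 2 highest values and the lowest were all from HSRA-S, and the difference was 0.051 (SE 0.13, 95% interval -0.24 to 0.34; limma adjusted p = 0.906). Without HSRA-C replicates 3 and 4 it was 0.12.

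Hbegf, whose precursor also serves as the diphtheria toxin receptor in humans, was at 5.30, 4.73, 4.79 and 4.60 in HSRA-S and 5.07, 4.84, 5.29 and 5.13 in HSRA-C, replicates 1 to 4. In HSRA-S 3 of 4 kidneys lay below all controls and replicate 1 was the highest of the 8. The difference was -0.23 (SE 0.15, 95% interval -0.56 to 0.10; limma adjusted p = 0.564), and it was -0.10 without HSRA-C replicates 3 and 4. Without HSRA-S replicate 1 it was -0.38, the lowest value with a single kidney left out. Hbegf then reached an unadjusted p under 0.05 in limma, but not an adjusted one.

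Areg, an inducible ligand, was at 4.12, 4.48, 4.44 and 4.48 in HSRA-S and 4.76, 4.32, 4.59 and 4.32 in HSRA-C, replicates 1 to 4. HSRA-S replicate 1 was the lowest of the 8, and the other kidneys of that group lay inside the control range. The difference was -0.12 (SE 0.12, 95% interval -0.38 to 0.15; limma adjusted p = 0.721). It was -0.030 without HSRA-S replicate 1 and -0.029 without HSRA-C replicate 1, the highest control. Areg was the dimmest of the 10 genes, above the filter set at a log2 mean of 3.63.

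Among the tested ErbB ligands outside the group, Nrg1 alone had groups without overlap. Of 7 such ligands 4 were tested, and 3 of the 4 had higher means in HSRA-S, with a median of 0.11. Nrg1, the neuregulin that binds ERBB3 and ERBB4, was at 6.28, 6.31, 6.45 and 6.38 in HSRA-S replicates 1 to 4 and 6.26, 6.17, 6.05 and 5.99 in HSRA-C replicates 1 to 4. The lowest HSRA-S kidney lay just above the highest control, and the difference was 0.23 (SE 0.075; limma adjusted p = 0.338). It was 0.13 without HSRA-C replicates 3 and 4, the 2 lowest kidneys. Btc, betacellulin, differed by 0.18 (SE 0.12) and Nrg4 by 0.030 (SE 0.10). They were 0.089 and 0.0085 without HSRA-C replicates 3 and 4, and Btc was 0.30 without HSRA-S replicate 4. Ereg, epiregulin, lay below the filter at 3.45 to 3.61 in HSRA-S and 3.39 to 3.56 in HSRA-C and was not tested. Epgn, epigen, named after its values were seen, also lay below the filter, at 2.71 to 2.84 in HSRA-S and 2.51 to 2.67 in HSRA-C, so that its groups did not overlap.

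Among the receptors 4 of 5 had lower means in HSRA-S. Egfr was at log2 5.90, 5.87, 5.74 and 5.49 in HSRA-S replicates 1 to 4 and 5.83, 5.86, 5.98 and 6.16 in HSRA-C replicates 1 to 4. HSRA-C replicates 3 and 4 were the 2 highest, HSRA-S replicates 3 and 4 the 2 lowest, and the remaining 4 kidneys lay within 5.83 to 5.90. The difference was -0.21 (SE 0.11, 95% interval -0.45 to 0.030; limma adjusted p = 0.459). It was -0.095 without HSRA-C replicates 3 and 4, and -0.12 without HSRA-S replicate 4.

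Erbb4, a receptor for neuregulins and for some EGF family ligands, was at 8.10, 8.0, 8.32 and 8.03 in HSRA-S and 8.22, 8.30, 8.36 and 8.50 in HSRA-C, replicates 1 to 4. In HSRA-S 3 of 4 kidneys lay below every control, and replicate 3 lay within the control range, the same kidney as for Hgf. The difference was -0.23 (SE 0.088, 95% interval -0.43 to -0.035; limma adjusted p = 0.363), with group means of 8.11 ± 0.14 for HSRA-S and 8.34 ± 0.12 for HSRA-C (SD, n = 4 each). The exact two-sided permutation gave p = 0.0857. It was -0.14 without HSRA-C replicates 3 and 4, and between -0.30 and -0.18 without any single kidney.

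Erbb2, the family member without a ligand of its own, was at 6.96, 6.91, 6.60 and 6.97 in HSRA-S and 7.04, 6.96, 7.04 and 7.03 in HSRA-C, replicates 1 to 4. The control kidneys lay within 0.086 of each other, and HSRA-S replicate 3 stood below all others. The difference was -0.16 (SE 0.086, 95% interval -0.35 to 0.035; limma adjusted p = 0.488), and it was -0.070 without HSRA-S replicate 3. Here the kidney that held Hgf and Erbb4 near the control level was the lowest.

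Erbb3, whose kinase domain is nearly inactive and which signals through its partners, was at 7.85, 7.65, 7.65 and 8.24 in HSRA-S and 7.91, 7.81, 7.74 and 7.78 in HSRA-C, replicates 1 to 4. HSRA-S replicate 4 was the highest of the 8 and replicates 2 and 3 of the same group the lowest. The difference was 0.037 (SE 0.12, 95% interval -0.24 to 0.31; limma adjusted p = 0.933). Without HSRA-S replicate 4 it was -0.094, and without HSRA-C replicates 3 and 4 it was -0.013.

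Egfr, Erbb4 and Met had HSRA-C replicates 3 and 4 as their 2 highest kidneys, which held for 3 of the 10 genes. These kidneys were also the highest in the means of the inner medulla and collecting duct markers. All 5 tested inner medulla markers and all 8 collecting duct markers had lower means in HSRA-S, against 44.5% of all genes. Of these markers 0 and 1 were at an unadjusted p under 0.05, against 4.69% of all genes lower at that threshold. At an adjusted p under 0.05 in limma there were 0. Without HSRA-C replicates 3 and 4 the inner medulla list had higher means in HSRA-S for 4 of 5 genes and the collecting duct list lower means for 6 of 8. The collecting duct mean was 7.81 to 8.29 in HSRA-S and 8.08 to 8.61 in HSRA-C. Slc14a2 lay between 4.44 and 7.22 in HSRA-S and between 5.99 and 9.0 in HSRA-C, and Aqp4 between 5.22 and 6.78 and between 5.45 and 7.57. Once the proximal tubule minus collecting duct marker mean of each kidney was a covariate, the differences were 0.0011 for Egfr, -0.11 for Erbb4 and -0.020 for Met, and -0.39 for Hgf. Hbegf was then -0.018, against -0.23 without the covariate, and Areg -0.22, against -0.12. Erbb2 was -0.20, Erbb3 -0.17 and Egf 0.023. Tgfa was 0.28, the single gene of the 10 at an unadjusted p under 0.05. The part of the medulla's share of the tissue in these differences was not tested beyond these values.

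**Figure D2:**
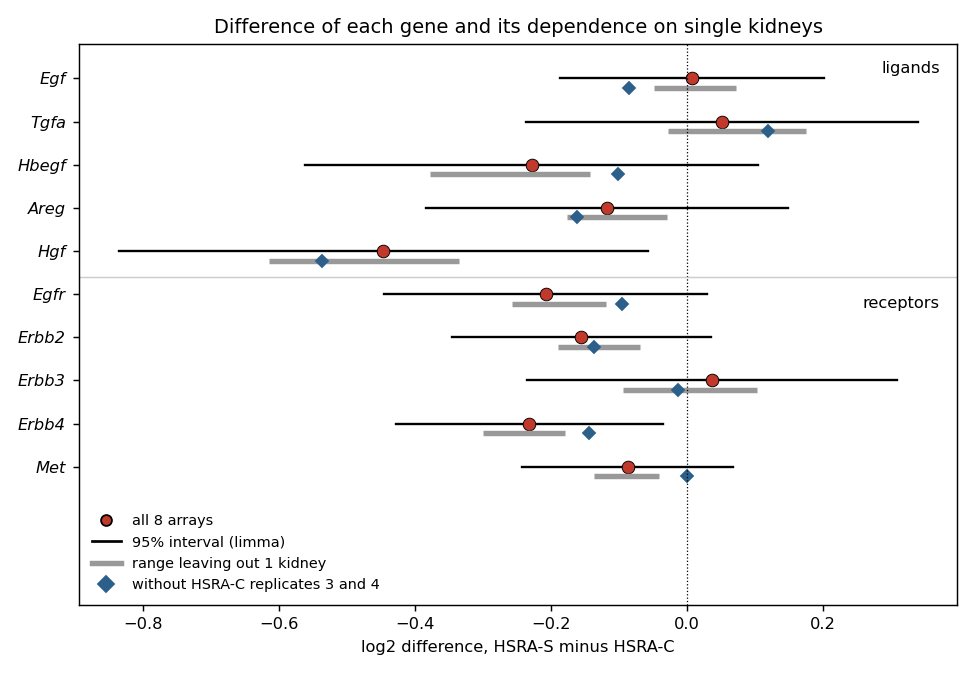
Log2 difference of each gene, HSRA-S minus HSRA-C, with its 95% interval from limma over 8 arrays (black), the range of the difference with any 1 kidney left out (grey) and the value without HSRA-C replicates 3 and 4 (blue). The intervals of Hgf and Erbb4 lie below 0 over all arrays, and the blue mark lies closer to 0 for Egfr, Erbb4, Hbegf and Met but farther from 0 for Hgf.

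The spread between kidneys of a group exceeded the median of all genes (SD 0.12) in 9 of the 10 genes. After Hgf, it was widest in Hbegf (SD 0.26), in Tgfa (SD 0.22) and in Erbb3 (SD 0.20), and it was narrowest in Met (SD 0.088). The 95% interval of the difference reached 0.16 to either side of the estimate in Met, the narrowest of the 10, and 0.39 in Hgf, the widest, and it included 0 in 8 genes. With 4 kidneys a group, a difference smaller than its gene's half-width does not reach an unadjusted p under 0.05 in limma. A larger one need not reach an adjusted p under 0.05: Hgf and Erbb4 exceeded their half-widths, at limma adjusted p = 0.375 and 0.363.

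Genes of the wider pathway had higher and lower means in HSRA-S in nearly equal number. Of 89 genes on 6 lists of ligands, activators, adaptors, kinases, inhibitors and response genes, 80 were tested, 41 with a higher and 39 with a lower mean in HSRA-S, and their median difference was 0.0018. Of the rest, 3 lay below the filter and 6 were not analysed here. In limma 0 passed at an adjusted p under 0.05 and 6 reached an unadjusted p under 0.05, or 7.5%, against 12.1% of all genes. The groups of 3 genes, or 3.75%, did not overlap, against 6.29% of all genes. The 6 were 4 higher genes, Nrg1, Eps15, Trpm6 and Ccnd1, and 2 lower, Spry1 and Lrig3. Without HSRA-C replicates 3 and 4 there were 3 higher genes of the 80 at that threshold and 0 lower. Of all genes 4.85% reached it in that setting, in either direction. Of the 4 higher genes, Eps15 stayed at 0.21, and Myc (0.22) and the inhibitor Spry4 (0.24, against 0.027 over all kidneys) were the others. Spry4 was named after its values were seen.

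**Figure D3:**
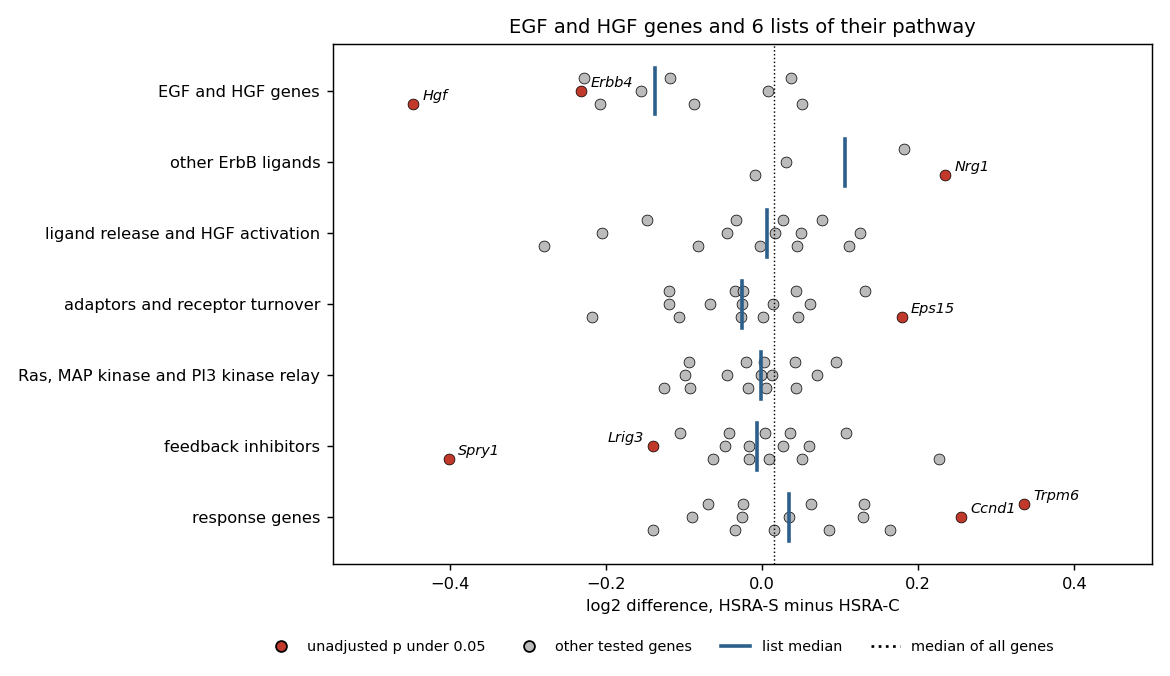
Log2 difference, HSRA-S minus HSRA-C, of the 10 EGF and HGF genes and of the tested genes of 6 pathway lists, 1 point per gene, red where the unadjusted limma p was under 0.05, with the list median in blue and the median of all genes dotted. The median of the 10 genes lies at -0.14 and those of the lists between -0.025 and 0.11.

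Adaptors and proteins of receptor turnover had 7 higher and 9 lower means among 16 tested genes, with a median of -0.025. Eps15, an endocytic adaptor that EGFR phosphorylates, was the single one at an unadjusted p under 0.05, at 0.18 (SE 0.070; limma adjusted p = 0.377). The docking protein Gab2 differed by -0.12 (SE 0.064), or -0.046 without HSRA-C replicates 3 and 4, and the adaptor Crk by 0.13 (SE 0.077). In the Ras, MAP kinase and PI3 kinase relay 15 of 20 genes were tested, 7 with higher and 8 with lower means, 0 of them at an unadjusted p under 0.05. The kinases Araf and Map2k2 differed by -0.092 (SE 0.052) and 0.094 (SE 0.058) and the scaffold Ksr1 by -0.099 (SE 0.065), or -0.029 without HSRA-C replicates 3 and 4. Araf had groups without overlap, at 8.26 to 8.29 in HSRA-S and 8.32 to 8.40 in HSRA-C.

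Feedback inhibitors were split evenly, 8 higher and 8 lower of 16, with 2 lower genes at an unadjusted p under 0.05. Spry1, which restrains receptor tyrosine kinase signals in the developing kidney, was at 8.12, 8.30, 8.48 and 8.50 in HSRA-S replicates 1 to 4 and 8.50, 8.60, 8.89 and 9.02 in HSRA-C replicates 1 to 4. The groups touched at 8.50, and the difference was -0.40 (SE 0.13; limma adjusted p = 0.338), or -0.20 without HSRA-C replicates 3 and 4. Lrig3, a relative of the ErbB inhibitor Lrig1, had groups without overlap, at 6.59 to 6.70 in HSRA-S and 6.77 to 6.83 in HSRA-C, a difference of -0.14 (SE 0.055; limma adjusted p = 0.377). Spred2, an inhibitor of Ras signalling, differed by -0.10 (SE 0.060). Errfi1, an inhibitor of the EGFR kinase that EGFR signals induce, differed by 0.23 with a wide error (SE 0.20), and the direction turned to -0.040 without HSRA-C replicates 3 and 4 and to -0.044 with the covariate.

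Response genes had 9 higher and 6 lower means among 15 tested, with a median of 0.034 and 2 higher genes at an unadjusted p under 0.05. Trpm6, the magnesium channel of the distal convoluted tubule that EGF stimulates, was at 7.51, 7.41, 7.28 and 7.34 in HSRA-S replicates 1 to 4 and 7.11, 7.33, 6.83 and 6.92 in HSRA-C replicates 1 to 4. HSRA-C replicate 2 overlapped with HSRA-S, and the difference was 0.34 (SE 0.11; limma adjusted p = 0.338), or 0.17 without HSRA-C replicates 3 and 4. Trpm6 is itself 1 of the 5 distal convoluted tubule markers given above, all with higher means in HSRA-S, where Egf differed by 0.0075. Ccnd1, the G1 cyclin, was at 9.66, 9.48, 9.58 and 9.27 in HSRA-S and 9.26, 9.33, 9.17 and 9.22 in HSRA-C, replicates 1 to 4. In HSRA-S 3 of 4 kidneys lay above every control and replicate 4 lay within the control range. The difference was 0.25 (SE 0.087; limma adjusted p = 0.346). Cell cycle markers moved with Ccnd1: all 7 tested had higher means in HSRA-S. Of the 7, 6 were at an unadjusted p under 0.05, against 7.36% of all genes higher at that threshold. Their list mean was 6.10 to 6.65 in HSRA-S and 5.70 to 6.47 in HSRA-C, and their part in the Ccnd1 difference was not tested. All 7 cell cycle markers were also higher without HSRA-C replicates 3 and 4, 0 of them at an unadjusted p under 0.05. The transcription factor gene Myc differed by 0.13 (SE 0.078), or 0.22 without HSRA-C replicates 3 and 4, where its unadjusted p was under 0.05.

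Markers of tubular injury, after which the EGF and HGF systems act in repair, had 4 higher and 3 lower means in HSRA-S among 7 tested, 0 at an unadjusted p under 0.05, and a median of 0.010. Leukocyte markers had higher means in 7 of 7, 3 at an unadjusted p under 0.05, against 7.36% of all genes higher at that threshold. Their list mean was 5.54 to 6.18 in HSRA-S and 5.33 to 5.77 in HSRA-C. Endothelial and podocyte markers had lower means in 4 of 4 each, 1 and 0 at an unadjusted p under 0.05, against 4.69% of all genes lower at that threshold. Without HSRA-C replicates 3 and 4 they had lower means in 2 and 4 of 4. The list for adrenal gland and fat, tissues next to the kidney, had a mean of 4.45 to 4.64 in HSRA-S and 4.50 to 4.63 in HSRA-C. The part of these cell types in the differences of the 10 genes was not tested.

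The genes whose pattern over the 8 kidneys was most like that of 4 members were named by Pearson's r as a description, and all values come from the same arrays. For Egf they were Samd5 (r = 0.988, Spearman's rho = 0.976), Celf2 (r = 0.954, rho = 0.929) and Zfyve9 (r = 0.948, rho = 0.905). Their r remained between 0.922 and 0.968 without the 2 kidneys farthest from the median of Egf, HSRA-S replicates 1 and 4. For Hgf they were Cspg4b (r = 0.972, rho = 0.976), Mme, the membrane protease neprilysin (r = 0.967, rho = 0.881), and Izumo4 (r = 0.967, rho = 0.952), with r between 0.860 and 0.935 without HSRA-S replicates 1 and 4. These 3 genes had lower means in HSRA-S, by -0.13, -0.26 and -0.15 on the log2 scale.

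For Egfr the genes were Capn2, a calpain protease (r = 0.977, rho = 0.952), Lamb2, a laminin chain of basement membranes (r = 0.975, rho = 0.929), and S1pr1, a sphingosine 1-phosphate receptor (r = 0.973, rho = 0.857). Their r was 0.803 to 0.893 without HSRA-S replicate 4 and HSRA-C replicate 4. For Met they were Epha7, an ephrin receptor (r = 0.964, rho = 0.857), Car8, a carbonic anhydrase-related protein (r = 0.963, rho = 0.881), and Osbpl3, an oxysterol-binding protein (r = 0.955, rho = 0.929). For Met, r was 0.745 to 0.763 for Osbpl3 and Epha7 and 0.810 for Car8 without HSRA-C replicates 3 and 4. Those kidneys were highest in the mean of the inner medulla markers. With r above 0.9 there were 39 genes for Egf, 105 for Egfr, 27 for Hgf and 49 for Met.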

How the data were processed

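RNA of 8 whole kidneys, 4 per group, was hybridised to 1 array each. The authors deposited linear intensity values, from 2.12 to 9259, made with RMA per the submitters' processing notes. RMA corrects background, sets the intensity distributions of arrays equal and sums the probes of a probe set; its software is not given in the sources used here. Precision is limited by the number of arrays. Log2 of each value was taken. Of 29214 probe sets, 18644 had 1 gene symbol, 962 several and 9608 none in the platform annotation; 18460 of the first matched RefSeq (GRCr8) by gene ID, with 0 symbols changed. Of several probe sets of a gene the brightest was kept, and the dimmest 20% of genes were left out.

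The groups were compared by limma 3.58.1 in R 4.3.3 (lmFit, eBayes without trend, group as the only term), with Benjamini-Hochberg adjustment over all 13796 genes at 0.05. The steps were tested on simulated data. Pathway and marker lists held 185 entries, and lists were described by counts and medians without a set test. Named were all 10 genes, the 3 genes of smallest p in each pathway list, and Btc, Ereg, Nrg1, Errfi1 and Trpm6. The 3 genes most correlated with Egf, Egfr, Hgf and Met were also named. Of the first 2 markers of each marker list only some were named, and of the inner medulla list also Akr1b1, Slc5a3 and Slc6a6. The members and lists were chosen with earlier results of these data known. Alternatives were other filters, probe set rules, scalings and tests, a covariate, a replicate block and left-out kidneys.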

Additional observations from a re-analysis of the deposited data

Results flagged for a closer look

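Of 60 groups of 4 values of the genes named here, 6 held a kidney far from the other 3 by the 95% critical value of Dixon's test, where chance gives about 5% of groups. Among the EGF and HGF genes, Areg was at log2 4.12 in HSRA-S replicate 1 and at 4.44 to 4.48 in the other HSRA-S kidneys. Erbb2 was at 6.6 in HSRA-S replicate 3, against 6.91 to 6.97 in the other HSRA-S kidneys, and at 6.96 in HSRA-C replicate 2, against 7.03 to 7.04 in the other controls. Of the pathway genes, St14 was at 6.79 in HSRA-S replicate 4 (others 7.44 to 7.49), Crk at 7.6 in HSRA-S replicate 4 (others 7.85 to 7.88) and Map2k2 at 7.09 in HSRA-C replicate 1 (others 7.0 to 7.01).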

How the results depend on the processing

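The count of EGF and HGF genes, and of pathway genes, at an adjusted p under 0.05 was 0 under all 20 alternatives. Over all genes it was 1, Hoxb5, with the dimmest 50% left out, with an intensity trend, and with 16 added before the log2. The 2 EGF and HGF genes lower at an unadjusted p under 0.05 became 1 in the unmoderated test and without HSRA-C replicates 3 and 4, 0 with the covariate, and 0 to 2 with 1 kidney left out. The count of higher ones was 1 with the covariate. Without HSRA-S replicate 1 the 2 lower ones were Erbb4 and Hbegf, not Hgf. Of all genes, the share at that threshold in either direction was 12.1% in the main fit and 10.4% in the unmoderated test. It was 4.85% without HSRA-C replicates 3 and 4, 7.54% with the covariate, and 7.32% to 14.1% with 1 kidney left out. The count of lower pathway genes, 2 over all kidneys, was 0 with the covariate, 0 without HSRA-C replicates 3 and 4, and 1 to 5 with 1 kidney left out. Hgf, Erbb4, Erbb2, Met, Hbegf and Areg kept their direction in every alternative run for them. For Met and Hbegf it was kept by little in places: Met was -0.00032 without HSRA-C replicates 3 and 4, and Hbegf -0.018 with the covariate.

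Directions near 0 turned. Egf was -0.020 under quantile normalization, -0.0043 with arrays centred on their medians, -0.085 without HSRA-C replicates 3 and 4 and -0.048 to 0.071 with 1 kidney left out. Tgfa was -0.029 to 0.18 and Erbb3 -0.094 to 0.10 with 1 kidney left out. Without HSRA-C replicates 3 and 4 Erbb3 was -0.013 and Errfi1 -0.040. With the covariate Egfr was 0.0011, Erbb3 -0.17, Errfi1 -0.044, Nrg4 -0.053 and St14 0.030. Nrg4 was -0.028 to 0.12 with 1 kidney left out. The cause of these turns was not tested.

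The groups share replicate numbers, but same-numbered kidneys deviated together at r of -0.11 to 0.13, and 2 of 8 samples correlated best with their own number, so the numbers were not taken as pairs. With a replicate block, 0 genes passed the adjusted threshold, 2 of the EGF and HGF genes were lower at an unadjusted p under 0.05 and the adjusted p of Hgf was 0.307. Areg, the dimmest of the 10 genes, lay nearest the filter on dim genes, and its difference was -0.18 to -0.029 with 1 kidney left out.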
